A study of Mus musculus with 27 samples.

Results

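The effect of dietary arsenic that the ileum, the cecum and the colon have in common was measured as the mean of the 3 arsenic-minus-control differences, each taken within its region. All 27 libraries entered, 13 on control and 14 on arsenic feed, and 17763 of the 52550 genes in the count table held enough reads to be tested. The animals were male C57BL/6 mice, 6 weeks old at the start, which had 7 days of acclimatization and then 60 days of ad libitum feed and water. Control mice ate standard feed, and the feed of the other mice held 30 µg/g of added arsenic, of which sodium arsenite was 72.7%, sodium DMA 19.0%, sodium arsenate 7.3% and sodium MMA 1.0% (DMA and MMA are dimethylated and monomethylated arsenic). The ileum and the cecum each gave 4 control and 5 arsenic libraries, and the colon gave 5 and 4, from 10 mice per diet. The labels number the libraries 1 to 5 on control and 11 to 15 on arsenic feed in each region. They give neither the mouse behind a number nor the hour of dissection, so p-values measure the spread between these libraries.

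Arsenite binds to neighbouring thiols of proteins, and cells exposed to it acutely are known for raising heat shock proteins, metallothioneins and targets of the oxidative stress factor NRF2. Arsenate resembles phosphate and can enter through phosphate carriers. The wall of the gut also keeps circadian time, and its cholesterol synthesis is set by the sterol-sensing factor SREBP2, which raises the enzymes of the mevalonate pathway when sterols in the endoplasmic reticulum are low.

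Levels below are library-scaled counts (CPM, with TMM factors from all libraries), listed in the order of the label numbers. Changes are log2 differences, arsenic minus control, ± SE, and a gene was called when its limma voom p, adjusted over the 17763 genes by Benjamini-Hochberg, was under 0.05. Each library held 15717600 to 18208518 counts. Libraries of a group correlated at 0.9481 to 0.9943 (Pearson, log2 CPM after adding 1). The regions matched their labels in the Paneth cell list, which marks small intestine: its mean log2 CPM was 6.08 to 8.35 in the ileum libraries, -1.86 to 1.05 in the cecum and -1.47 to 2.88 in the colon. Fabp6, which carries bile acids inside ileal enterocytes, stood at 6.13 and 1.33 CPM in ileum arsenic 14 and 15 and at 219 to 4270 CPM in the other 7 ileum libraries. Without these 2 libraries 3115 genes in place of 2878 were called for the average, and 1 of the 100 named genes, Txnrd1, changed its call. The genes whose diets did not overlap in any region numbered 251 in place of 169. Fewer libraries leave less room for overlap, so that count tends to rise whichever are left out.

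The averaged effect was called for 2878 genes (16.2% of those tested), 1337 higher (7.53%) and 1541 lower (8.68%) on arsenic feed. The changes were mostly small: the median size among called genes was 0.34 for the higher and -0.31 for the lower genes, and 75 higher and 57 lower genes changed more than 2-fold. Over all genes tested the median averaged change was 0.02. Of the called genes, 2503 (87%) had the same sign in the 3 regions, against 38.3% of all genes tested. The other 375 changed the opposite way in at least 1 region, the ileum for 207 of them, the cecum for 136 and the colon for 36. A call for the average itself favours equal signs, so 87% and 38.3% are not like for like.

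A call for the average does not by itself mean a change in every region. With the same fit, 3002 genes were called within the ileum (16.9%), 1788 within the cecum (10.1%) and 562 within the colon (3.16%). Of the 2878 genes called for the average, 629 were called in no single region, 1654 in 1, 434 in 2 and 161 in 3. The single change of largest size lay in the ileum for 1237 of them, in the cecum for 1126 and in the colon for 515. The set called in each region with 1 sign held 160 genes (0.901%), 75 higher (0.422%) and 85 lower (0.479%). The difference of the effect between regions (moderated F-test of the same limma fit) was called for 1539 genes (8.66%) and for 426 of the 2878 (14.8%). The joint fit gives the regions 1 spread. edgeR in each region alone called 1190 genes in the ileum, 3933 in the cecum, 107 in the colon and 43 in all 3, of which 37 are among the 160. Single libraries moved the regional counts: 1894 genes were called in the ileum without ileum control 2, 1063 and 1106 in the cecum without cecum control 1 or 2, and 309 and 348 in the colon without colon arsenic 12 or 15. Without colon arsenic 12 the set called in each region held 103 genes, and without ileum control 2 the region difference was called for 695.

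Shared changes were also counted without a model. In 169 genes (0.951%) the arsenic libraries lay wholly on 1 side of the control libraries in each region, 81 genes higher (0.456%) and 88 lower (0.495%). All 169 were called for the average, 104 of them in each region, and 12 had a called difference between regions. Their median averaged change was 0.50 for the higher and -0.51 for the lower genes. Of the remaining called genes, 703 had groups that did not overlap in 2 regions, 1516 in 1 region and 490 in none, as plotted by direction. The count without overlap was 332 when the libraries numbered 1 were left out and 271 when those numbered 15 were. It was 169 to 227 with any 1 library and 185 to 332 with any 1 number left out. Fewer libraries leave less room for overlap, so a rise does not single out the libraries left out.

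**Figure D1:**
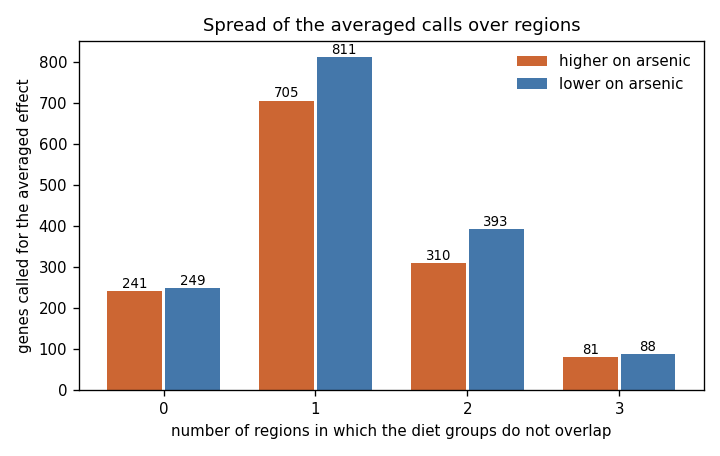
Genes called for the averaged effect (y axis, number of genes) by the number of regions in which their control and arsenic libraries did not overlap in the called direction (x axis), for genes higher and lower on arsenic. The bars over 3 regions are the 81 higher and 88 lower genes; most called genes stand at 1 region.

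One measured quantity moved with the diet in all regions and touches most results below. The clock score was the mean log2 CPM of 15 circadian repressor and output genes minus that of 6 activator and opposed-arm genes. The 6 include Nfil3 and Cry1, which are repressors. The score was 0.27 ± 0.24 (SD, n = 4) in ileum control and 1.00 ± 0.31 (n = 5) in ileum arsenic libraries. The cecum had -0.21 ± 0.28 (n = 4) on control and 0.98 ± 0.12 (n = 5) on arsenic feed, and the colon 0.21 ± 0.25 (n = 5) and 1.06 ± 0.39 (n = 4). The diets did not overlap in the cecum (-0.49 to 0.11 against 0.78 to 1.09) or in the colon (-0.24 to 0.37 against 0.65 to 1.52), and in the ileum they overlapped through 1 arsenic library (-0.06 to 0.52 against 0.48 to 1.23). The score and the diet therefore moved together in these libraries. With the score as a covariate, 79 genes in place of 2878 were called. The median SE of the averaged change rose from 0.12 to 0.24 while 2766 of the 2878 genes kept their direction, with a median ratio of 0.9 between the changes with and without the covariate. Of the 169 genes without overlap, 39 were still called. The set called in each region with the covariate held 15 genes, among them Chordc1, Hspa8, Hsph1, Banp, Cirbp, Tra2a, Ttll3, Zbtb40, Ints8, Hmgcs1, Lss and Hsd17b7. Its part in the results was not tested beyond this covariate.

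Banp (BTG3-associated nuclear protein, ENSMUSG00000025316), a nuclear protein that binds CG-rich promoter DNA, had the largest averaged decrease among the genes without overlap in any region. Banp held 19.1, 16.4, 16.3 and 14 CPM in the ileum control libraries and 4.8, 4.94, 7.07, 5.38 and 4.56 CPM in the ileum arsenic libraries. In the cecum, Banp held 19, 14.2, 14.4 and 14 CPM on control and 6.07, 4.66, 5.38, 5.35 and 5.2 CPM on arsenic feed. Colon levels of Banp were 18.2, 14.4, 16.9, 20.4 and 17.9 CPM on control and 4.43, 5.52, 6.19 and 5.47 CPM on arsenic feed. Every arsenic library lay below every control library of any region. The averaged change was -1.61 ± 0.09 (limma voom adjusted p = 3.98e-12), made up of -1.62 ± 0.14 (ileum), -1.52 ± 0.15 (cecum) and -1.69 ± 0.14 (colon), and it was -1.59 with the clock score as a covariate (limma voom adjusted p = 6.75e-05).

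**Figure D2:**
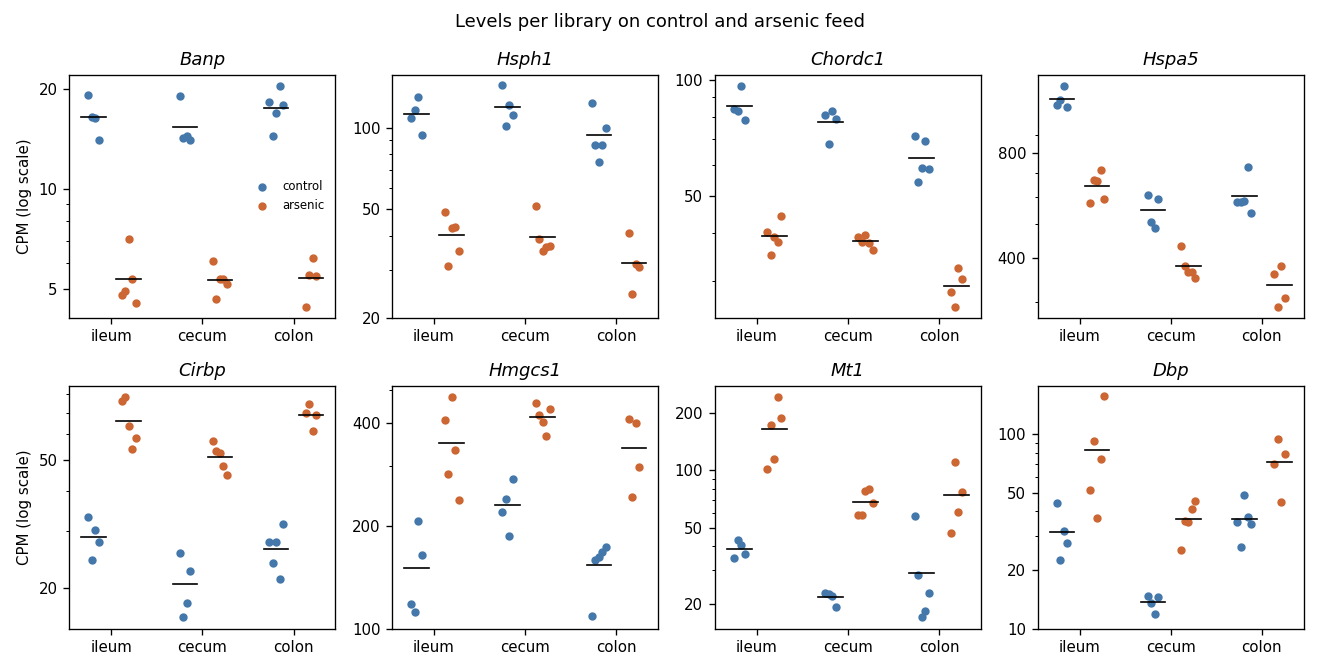
CPM (log scale) of 8 genes in each of the 27 libraries, by region and diet, with a line at the mean of each group. Banp, Hsph1, Chordc1 and Hspa5 are lower and Cirbp and Hmgcs1 higher in every arsenic library of a region than in its control libraries, while Mt1 overlaps in the colon through 1 control library and Dbp overlaps in the ileum and the colon.

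Heat shock proteins keep other proteins folded, and heat shock factor HSF1 drives their genes through repeats of the motif GAA in alternating orientation. The list of heat shock chaperones and co-chaperones had 30 members, all tested. It also held genes that are neither, such as Hsf2, not called, and P4ha1, called lower (-0.99). None was called higher and 21 were called lower for the average, with a median change of -0.33 over the 30, against 8.68% lower calls and a median of 0.02 over all genes. The counts of the lists that follow stand against the same 8.68% lower and 7.53% higher calls. Counts without overlap in any region stand against 0.495% lower and 0.456% higher of all genes. The medians by region were -0.36 (ileum), -0.43 (cecum) and -0.42 (colon), and 10 of the 30 had diets that did not overlap in any region. Once the clock score was a covariate, 5 of the 30 were called lower and the list median was -0.36. Counts with this covariate, here and for the lists that follow, stand against 79 called of the 17763 genes tested.

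Promoter windows of 25 of the 30 genes were matched by symbol in RefSeq (GRCm38.p6, from 250 bases before to 50 after the start of the gene). They were searched on both strands for 3 heat shock units in a row (GAA, any 2 bases, TTC, any 2 bases, GAA). The run of units occurred in 4 of the 25 windows, 2 of 17 called and 2 of 8 not called, against 0.529% of the windows of 27025 genes and 0.409% of those of genes tested. The 2 called genes that hold it are Hsph1 and Chordc1, and their windows are printed to show where it lies, with the matches in capitals. The match of Hsph1 begins 36 bases after the start, on the strand opposite to the gene, and Chordc1 has 3 overlapping matches around its start.
Hsph1 chr5:149636287-149636586 (minus strand): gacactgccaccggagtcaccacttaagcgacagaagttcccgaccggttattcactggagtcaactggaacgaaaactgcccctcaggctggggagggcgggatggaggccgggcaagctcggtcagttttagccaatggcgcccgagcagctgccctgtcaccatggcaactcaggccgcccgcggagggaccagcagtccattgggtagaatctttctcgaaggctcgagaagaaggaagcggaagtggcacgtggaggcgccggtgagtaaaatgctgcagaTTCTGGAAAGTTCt
Chordc1 chr9:18292017-18292316 (plus strand): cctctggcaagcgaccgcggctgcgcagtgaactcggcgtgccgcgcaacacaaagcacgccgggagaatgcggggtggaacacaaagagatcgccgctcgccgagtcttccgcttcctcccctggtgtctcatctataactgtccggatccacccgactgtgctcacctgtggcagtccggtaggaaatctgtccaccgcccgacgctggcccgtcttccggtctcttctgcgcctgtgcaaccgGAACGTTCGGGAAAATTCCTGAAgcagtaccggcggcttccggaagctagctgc

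Hsph1 (ENSMUSG00000029657), an HSP110 that releases ADP from HSP70, changed by -1.54 ± 0.10 on average (limma voom adjusted p = 3.44e-11). Hsph1 held 108, 116, 129 and 94.1 CPM in the ileum control libraries and 48.8, 31.1, 42.7, 43.2 and 35.3 CPM in the ileum arsenic libraries. In the cecum, Hsph1 held 143, 101, 121 and 111 CPM on control and 51.3, 38.8, 35.2, 36.5 and 36.6 CPM on arsenic feed. Colon levels of Hsph1 were 123, 85.9, 74.4, 85.9 and 99.3 CPM on control and 40.9, 24.4, 31.5 and 30.6 CPM on arsenic feed. The groups stood apart in each region, and control 1 was the highest in the cecum and the colon. The regional changes were -1.48 ± 0.15 (ileum), -1.59 ± 0.15 (cecum) and -1.56 ± 0.15 (colon).

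Chordc1 (ENSMUSG00000001774), a co-chaperone of HSP90, had the smallest averaged p of all genes tested. Chordc1 held 83.8, 83, 96.3 and 78.6 CPM in the ileum control libraries and 40.3, 35.2, 39.2, 38 and 44.4 CPM in the ileum arsenic libraries. In the cecum, Chordc1 held 81, 68.2, 82.8 and 78.9 CPM on control and 39, 38, 39.5, 37.7 and 36.2 CPM on arsenic feed. Colon levels of Chordc1 were 71.5, 54.4, 59.1, 69.5 and 58.5 CPM on control and 28.2, 25.8, 32.4 and 30.4 CPM on arsenic feed. The arsenic libraries of the ileum and cecum spanned only 35.2 to 44.4 and 36.2 to 39.5 CPM and lay under every control library of those regions. The averaged change was -1.08 ± 0.06 (limma voom adjusted p = 1.57e-12), with -1.12 (ileum), -1.03 (cecum) and -1.10 (colon), and -1.11 with the clock score as a covariate (limma voom adjusted p = 2.71e-05).

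Hspa8, the constitutive HSP70, averaged 1893 ± 103 CPM (SD, n = 4) in ileum control and 1219 ± 150 CPM (n = 5) in ileum arsenic libraries. Its cecum means were 2049 ± 193 (n = 4) and 942 ± 103 CPM (n = 5), and its colon means 1703 ± 205 (n = 5) and 918 ± 52.1 CPM (n = 4). The diets did not overlap in any region, and the change was -0.88 ± 0.06 (limma voom adjusted p = 3.19e-10). The inducible Hspa1b stood higher in the large than in the small intestine of controls, without overlap: 53.4 to 145 CPM in cecum and 66.4 to 150 CPM in colon controls, against 14.7 to 21.6 CPM in ileum controls. On arsenic feed it stood at 5.89 to 7.53 CPM (ileum), 13.9 to 24.4 CPM (cecum) and 35.7 to 40 CPM (colon), below all controls of the region, a change of -1.59 ± 0.15 (limma voom adjusted p = 1.64e-07). Its near-identical neighbour Hspa1a changed by -1.29 ± 0.20 (limma voom adjusted p = 7.17e-05) and overlapped in the ileum, and how reads were shared between them is uncertain. Beside the clock score covariate, Hspa1b was -1.14 and Hspa1a -0.74, neither of them called (limma voom adjusted p = 0.0786 and 0.353).

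The J-domain protein Dnaja1, a partner of HSP70, fell by 0.84 ± 0.07 on the log2 scale, with -0.72 (ileum), -0.84 (cecum) and -0.97 (colon). In the HSP90 branch, Hsp90aa1, the inducible HSP90, changed by -0.59 ± 0.07, the ATPase activators Ahsa1 and Ahsa2 by -0.40 ± 0.06 and -0.50 ± 0.07, and Cacybp, the calcyclin-binding protein, by -0.49 ± 0.06. These 4 genes and Hspa4l (another HSP110, -0.59 ± 0.06) did not overlap between diets in any region, and none of the 5 was called with the clock score as a covariate. Stip1, the adaptor that links HSP70 to HSP90, changed by -0.60 ± 0.05, but unevenly: -0.24 (ileum), -0.74 (cecum) and -0.81 (colon) (limma adjusted p of the region difference = 0.00283). Among the members not called for the average were the mitochondrial chaperonin subunits and the small heat shock proteins.

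The endoplasmic reticulum has its own chaperones, raised in the unfolded protein response by the factors ATF6 and XBP1 through the endoplasmic reticulum stress element. Of the 24 members of that list, 14 were called lower (8.68% over all genes) and none higher for the average, with a median of -0.31. The regional medians were -0.25 (ileum), -0.29 (cecum) and -0.35 (colon). No overlap in any region was found for 5 members, all lower (0.495% over all genes). The clock score as a covariate left 1 of the 24 called, with a list median of -0.27. The element (CCAAT, any 9 bases, CCACG, on either strand) was found in 9 of 21 matched windows, 8 of 12 called and 1 of 9 not called, against 0.13% of all windows and 0.144% of those of genes tested. The windows of the 2 called members with the largest changes, Hspa5 and Creld2, show it in both orientations, in capitals.
Hspa5 chr2:34771840-34772139 (plus strand): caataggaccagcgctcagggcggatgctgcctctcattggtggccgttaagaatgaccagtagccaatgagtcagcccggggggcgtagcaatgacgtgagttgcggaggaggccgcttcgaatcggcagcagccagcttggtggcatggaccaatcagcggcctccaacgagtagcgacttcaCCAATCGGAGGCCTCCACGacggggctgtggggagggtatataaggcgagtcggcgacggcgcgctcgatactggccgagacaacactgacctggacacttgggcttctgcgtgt
Creld2 chr15:88819396-88819695 (plus strand): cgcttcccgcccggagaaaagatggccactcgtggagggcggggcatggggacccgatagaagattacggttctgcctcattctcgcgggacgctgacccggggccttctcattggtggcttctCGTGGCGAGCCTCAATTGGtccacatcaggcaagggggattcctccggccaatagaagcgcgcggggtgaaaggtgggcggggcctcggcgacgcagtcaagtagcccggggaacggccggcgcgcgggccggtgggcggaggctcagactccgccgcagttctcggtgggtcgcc

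Hspa5 (ENSMUSG00000026864), the HSP70 of the endoplasmic reticulum, had the largest change of the list. Hspa5 held 1100, 1140, 1250 and 1090 CPM in the ileum control libraries and 574, 669, 666, 714 and 590 CPM in the ileum arsenic libraries. In the cecum, Hspa5 held 609, 508, 488 and 593 CPM on control and 433, 380, 364, 366 and 350 CPM on arsenic feed. Colon levels of Hspa5 were 578, 581, 582, 731 and 539 CPM on control and 359, 290, 380 and 307 CPM on arsenic feed. No arsenic library reached a control library of its region. Its averaged change was -0.74 ± 0.06 (limma voom adjusted p = 1.65e-08), with -0.84 ± 0.10 (ileum), -0.54 ± 0.10 (cecum) and -0.85 ± 0.10 (colon).

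Creld2, a resident protein induced with Hspa5, changed by -0.72 ± 0.09, and its levels of 22.8 to 28.8 CPM in cecum arsenic and 33.4 to 47 CPM in cecum control libraries did not overlap, nor did those of the other regions. Manf, a secreted survival factor of the reticulum, changed by -0.49 ± 0.08, Syvn1, the ubiquitin ligase that clears misfolded proteins from it, by -0.56 ± 0.06, and the co-chaperone Dnajc3 by -0.33 ± 0.05. All 3 were without overlap in any region, Syvn1 with almost equal changes of -0.55 (ileum), -0.56 (cecum) and -0.57 (colon). Hyou1, a large HSP70 of the reticulum, was called for the average (-0.57 ± 0.08) but differed between regions, with -0.20 (ileum), -0.73 (cecum) and -0.79 (colon) (limma adjusted p of the difference = 0.0459). In the integrated stress response list, which follows the factor ATF4, 1 of 20 members was called higher and 2 lower, with a median of -0.02.

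The score of the heat shock list (the mean log2 CPM of its 30 genes) did not overlap between diets in any region, as plotted beside the clock score.

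**Figure D3:**
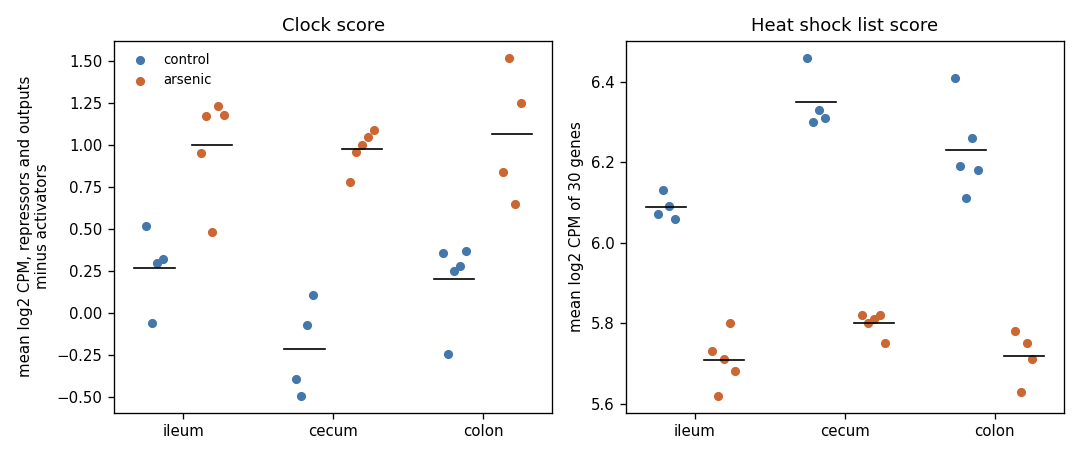
Clock score (left, mean log2 CPM of 15 repressor and output genes minus that of 6 activator and opposed-arm genes) and heat shock list score (right, mean log2 CPM of 30 genes) in each library, by region and diet, with a line at the group mean. Arsenic libraries are higher in the clock score, with overlap in the ileum only, and lower in the heat shock score in all 3 regions.

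Of the gene lists examined, cholesterol synthesis had the most members called higher. Of its 28 genes tested, 22 were called higher and 2 lower for the average, with a median of 0.62, against 7.53% higher calls over all genes. By region the median was 0.77 (ileum), 0.36 (cecum) and 0.69 (colon). The genes called within a region numbered 24, 9 and 10, against 16.9%, 10.1% and 3.16% of all genes. In 8 genes, all higher (0.456% over all genes), the diets did not overlap in any region, with Hmgcs1, Mvk, Mvd, Fdft1, Lss and Hsd17b7 among them. The clock score as a covariate left 14 called higher and 0 lower, with a list median of 1.01. Without ileum arsenic 14 and 15, 22 were called higher and 2 lower.

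At the top of the pathway, Hmgcs1 (ENSMUSG00000093930), which makes HMG-CoA, changed by 1.06 ± 0.12 (limma voom adjusted p = 1.58e-06). Hmgcs1 held 118, 112, 206 and 164 CPM in the ileum control libraries and 409, 283, 478, 334 and 238 CPM in the ileum arsenic libraries. In the cecum, Hmgcs1 held 219, 239, 187 and 275 CPM on control and 457, 423, 403, 367 and 439 CPM on arsenic feed. Colon levels of Hmgcs1 were 109, 159, 162, 167 and 173 CPM on control and 410, 243, 399 and 297 CPM on arsenic feed. The lowest arsenic library of each region lay above its highest control, by a narrow margin in the ileum.

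Later steps of the mevalonate pathway rose unevenly. Mvk, mevalonate kinase, held 12.5 to 17.5 CPM in ileum control and 34.3 to 55.6 CPM in ileum arsenic libraries, against 15.2 to 23 and 24.3 to 30.7 CPM in the cecum and 12 to 17 and 19 to 27.1 CPM in the colon. The diets did not overlap anywhere, but the ileum rose most: 1.59 (ileum), 0.40 (cecum) and 0.70 (colon) (averaged 0.89 ± 0.10, limma adjusted p of the region difference = 0.00281). Mvd, a decarboxylase further down the pathway, had 1.50 (ileum), 0.36 (cecum) and 0.94 (colon) (averaged 0.93 ± 0.11, limma adjusted p of the difference = 0.00937). Squalene synthase Fdft1 changed by 0.91 ± 0.12 and lanosterol synthase Lss by 1.06 ± 0.12, and neither differed between regions beyond the threshold (limma adjusted p = 0.338 and 0.572).

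Hsd17b7, which reduces a sterol ketone, rose by 0.71 ± 0.08. The last step was an exception: Dhcr7, which turns 7-dehydrocholesterol into cholesterol, had 1.27 (ileum), -0.36 (cecum) and -0.22 (colon), and its average of 0.23 ± 0.08 was not called (limma voom adjusted p = 0.0616, and 1.49e-05 for the region difference). Its call depended on the setting: without the label number as a random effect it passed in limma voom, edgeR and DESeq2 (adjusted p = 0.0356, 0.0475 and 0.0368). It was also called without any 1 of ileum control 3, ileum control 5, ileum arsenic 11 and ileum arsenic 12 (limma voom adjusted p = 0.0308, 0.0208, 0.0443 and 0.0276). In the list of fatty acid synthesis, 1 of 22 members was called higher and 2 lower, with a median of -0.10.

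**Figure D4:**
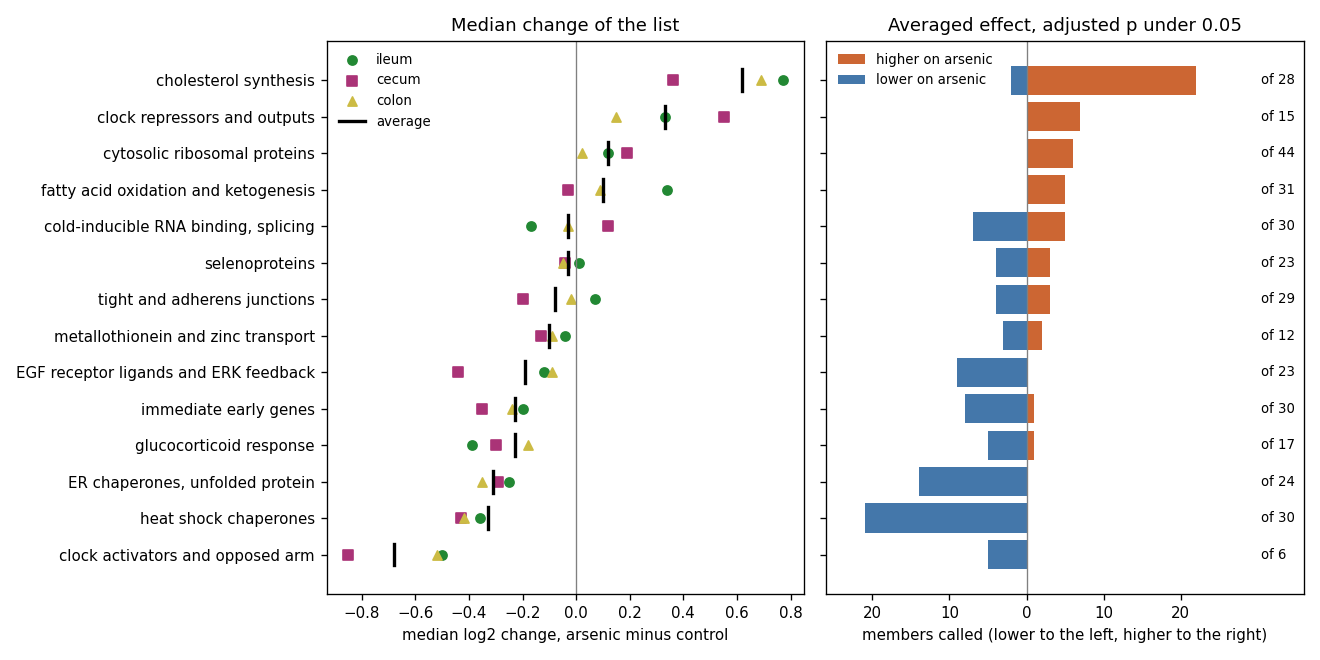
Left, median log2 change (arsenic minus control) of 14 gene lists in each region and for the average; right, number of members called for the averaged effect, lower to the left and higher to the right, with the number tested. Cholesterol synthesis stands out at the right with 22 of 28 called higher and heat shock chaperones at the left with 21 of 30 called lower.

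Cirbp (ENSMUSG00000045193), a cold-inducible protein that binds mRNA, had the largest averaged increase among the genes without overlap in any region, leaving out predicted genes. Cirbp held 33.1, 24.4, 30.3 and 27.7 CPM in the ileum control libraries and 75.8, 78.4, 63.4, 54.1 and 58.4 CPM in the ileum arsenic libraries. In the cecum, Cirbp held 25.7, 16.2, 18 and 22.6 CPM on control and 57, 53.3, 52.3, 47.7 and 44.7 CPM on arsenic feed. Colon levels of Cirbp were 27.8, 23.9, 27.8, 21.3 and 31.5 CPM on control and 69.9, 74.3, 61.2 and 68.9 CPM on arsenic feed. The highest control library of each region lay well below its lowest arsenic library. The averaged change was 1.30 ± 0.08 (limma voom adjusted p = 3.44e-11), with 1.20 ± 0.13 (ileum), 1.32 ± 0.14 (cecum) and 1.37 ± 0.13 (colon), and 1.14 with the clock score as a covariate (limma voom adjusted p = 0.000579). Rbm3, its cold-inducible relative, changed by 0.43 ± 0.08 (limma voom adjusted p = 0.00068) and overlapped in the ileum and the colon but not in the cecum.

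The list of cold-inducible and splicing factors moved in both directions, with 5 of 30 called higher and 7 lower, a median of -0.03 and 1 higher and 1 lower calls with the clock score as a covariate. The lower ones included the SR-like factors that steer exon choice. Tra2a held 126 to 138 CPM in ileum, 102 to 115 in cecum and 107 to 140 in colon controls, and 47.6 to 71.9, 48.5 to 71.6 and 46.7 to 73.8 CPM on arsenic feed in the same order. All arsenic libraries were below all controls, and the change was -1.04 ± 0.08 (limma voom adjusted p = 8.91e-10). Tra2b changed by -0.34 ± 0.05 and Srsf10 by -0.42 ± 0.06, both without overlap in any region, and neither was called with the clock score as a covariate. Outside that list, Hnrnpd, which binds AU-rich mRNA, rose by 0.50 ± 0.05, with 0.78 (ileum), 0.38 (cecum) and 0.33 (colon) (limma adjusted p of the region difference = 0.0194).

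The other large shared changes belonged to no one list. The zinc finger gene Zc3h6 held 1.7 to 3.25 CPM (ileum), 1.97 to 2.58 CPM (cecum) and 2.12 to 4.15 CPM (colon) on control feed, and 3.29 to 5.5, 5.27 to 7.25 and 6.61 to 8.96 CPM on arsenic feed. It rose by 1.25 ± 0.13 without overlap (limma voom adjusted p = 2.58e-07). Epm2a, the glycogen phosphatase laforin, rose by 0.99 ± 0.16, Slc41a3, a magnesium carrier, by 0.88 ± 0.14, and Chpf2, an enzyme of chondroitin synthesis, by 0.81 ± 0.08. Txnrd3, a selenoprotein that reduces thioredoxin and glutathione, rose by 0.74 ± 0.09, and Gas2, which binds actin and microtubules, by 0.82 ± 0.13. Smaller increases with small errors were those of Mcrs1 (0.64 ± 0.06), the mediator subunit Med16 (0.60 ± 0.06), the ribosome assembly factor Nop53 (0.59 ± 0.05) and the ESCRT-III protein Chmp6 (0.56 ± 0.06). The desmosome protein Pkp3 rose by 0.43 ± 0.06. With the clock score as a covariate, Zc3h6, Chpf2, Med16, Nop53 and Chmp6 were still called. Txnrd3 (0.37), Gas2 (0.60), Epm2a (1.02), Slc41a3 (0.96), Mcrs1 (0.50) and Pkp3 (0.52) were not (limma voom adjusted p = 0.0546 to 0.324).

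Among the lower genes, Ttll3, which adds glycine to tubulin, changed by -1.23 ± 0.09, and the zinc finger gene Zbtb40 by -1.05 ± 0.08 (limma voom adjusted p = 4.49e-10 and 1.21e-09). Fgf11 changed by -0.99 ± 0.10, the Integrator subunit Ints8 by -0.81 ± 0.06, Thap2 by -0.77 ± 0.09 and Wdcp by -0.75 ± 0.11. The membrane mucin Muc13 stood at 2765 ± 64.1 CPM (SD, n = 4) in ileum control and 1803 ± 421 CPM (n = 5) in ileum arsenic libraries, and changed by -0.51 ± 0.07 (limma voom adjusted p = 3.38e-05). Wdcp and Muc13 were not called with the clock score as a covariate (-0.97 and -0.45, limma voom adjusted p = 0.0654 and 0.186). In each of these genes the arsenic libraries lay on the low side of the controls in all 3 regions, as plotted by region for the large shared changes.

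**Figure D5:**
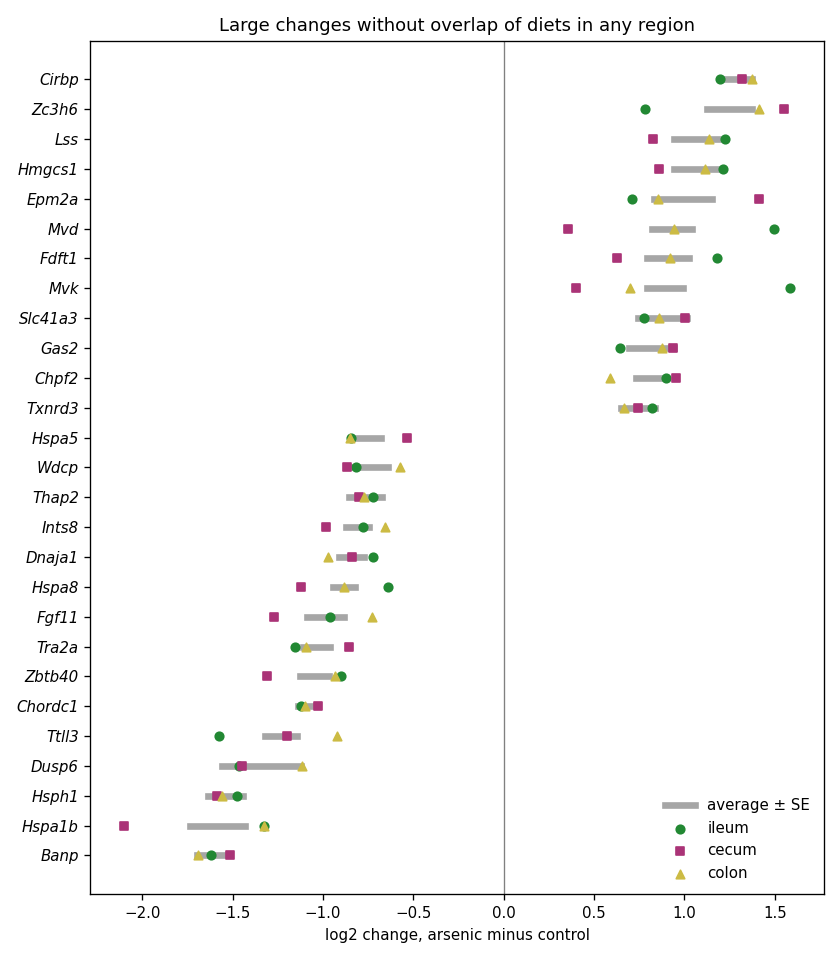
Log2 change, arsenic minus control, in the ileum, cecum and colon (points) and averaged ± SE (grey bars) for 12 increases and 15 decreases from the 15 largest in each direction among genes whose diets overlapped in no region. Hsph1, Chordc1 and Banp have nearly equal changes in the 3 regions, while Mvk, Mvd and Hspa1b spread widely.

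The clock lists themselves changed for the average. In the clockwork, CLOCK or NPAS2 with BMAL1 (gene Arntl) activates the repressors and the output factors through the E-box CACGTG, and NFIL3 opposes the outputs. Of the 6 activators and opposed-arm genes, 5 were called lower and none higher, with a median of -0.68, and of the 15 repressors and outputs 7 were called higher and none lower, with a median of 0.33. The E-box occurred in 4 of 12 matched windows of the second list, 3 of 7 called and 1 of 5 not called, against 7.24% of all windows and 9.46% of those of genes tested. Ciart, a clock repressor, has 3 matches, in capitals.
Ciart chr3:95882179-95882478 (minus strand): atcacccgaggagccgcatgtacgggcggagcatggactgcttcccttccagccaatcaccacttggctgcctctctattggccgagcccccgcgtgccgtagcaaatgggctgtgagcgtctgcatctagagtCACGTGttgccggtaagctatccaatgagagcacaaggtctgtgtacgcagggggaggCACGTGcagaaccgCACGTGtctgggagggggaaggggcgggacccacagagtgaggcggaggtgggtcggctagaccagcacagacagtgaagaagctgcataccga

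Ciart rose by 1.10 ± 0.16 (limma voom adjusted p = 3.04e-05), and its diets overlapped in the ileum alone. Control libraries held 2.62 to 5.64 CPM (ileum), 3.16 to 7.11 CPM (cecum) and 4.64 to 10 CPM (colon), and arsenic libraries 5.1 to 9.68, 9.97 to 13.7 and 11.5 to 21.4 CPM. Dbp (ENSMUSG00000059824) is an output factor with a strong daily rhythm. Dbp held 44.3, 22.5, 31.6 and 27.4 CPM in the ileum control libraries and 51.7, 92.3, 37, 74.5 and 156 CPM in the ileum arsenic libraries. In the cecum, Dbp held 14.7, 13.6, 11.9 and 14.5 CPM on control and 25.2, 35.7, 35.5, 41 and 45.5 CPM on arsenic feed. Colon levels of Dbp were 35.2, 26.4, 48.5, 37.3 and 34.4 CPM on control and 70, 94.3, 44.7 and 79.4 CPM on arsenic feed. The diets stood apart in the cecum and overlapped in the other regions, and ileum arsenic 15 was the highest of all. Dbp changed by 1.20 ± 0.19 (limma voom adjusted p = 0.000136).

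Arntl changed by -0.89 ± 0.18 (limma voom adjusted p = 0.000933), with -0.87 (ileum), -1.10 (cecum) and -0.71 (colon). Its control libraries were themselves spread, at 13.1 to 21.4 CPM (ileum), 31.5 to 53.2 CPM (cecum) and 17.3 to 44.9 CPM (colon). Npas2 changed by -0.60 ± 0.14 and Nfil3 by -1.11 ± 0.18. Clock, with -0.34 ± 0.06, was the 1 member of the activator and opposed-arm list without overlap in any region. Cry1, a repressor that peaks late and was listed with the opposed arm, changed by -0.75 ± 0.12, mainly in the cecum (ileum -0.20, cecum -1.44 and colon -0.60, limma adjusted p of the difference = 0.00874). Bhlhe41, Tef and Cry2 rose by 0.99 ± 0.19, 0.57 ± 0.12 and 0.37 ± 0.09. The period genes Per1 and Per2 were at -0.12 ± 0.12 and -0.17 ± 0.17 and Nr1d1, the REV-ERB alpha repressor, at 0.33 ± 0.12, all without a call (limma voom adjusted p = 0.567, 0.547 and 0.0728). Without the label number as a random effect Nr1d1 was called by limma voom, edgeR and DESeq2 (adjusted p = 0.043, 0.0407 and 0.0288), and with upper-quartile scaling by limma voom (adjusted p = 0.0454). It was also called without ileum arsenic 14 or without colon control 3 (limma voom adjusted p = 0.0478 and 0.0203).

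In the list of EGF receptor ligands and ERK feedback genes, 9 of 23 were called lower, against 8.68% of all genes, and none higher, with a median of -0.19 and a lower median in the cecum (-0.44) than in the ileum (-0.12) and colon (-0.09). Dusp6, the phosphatase that ERK induces and that dephosphorylates ERK, was the member without overlap in any region. Dusp6 held 165, 143, 140 and 160 CPM in the ileum control libraries and 22.7, 73.2, 77.9, 30.7 and 131 CPM in the ileum arsenic libraries. In the cecum, Dusp6 held 57.1, 83.9, 63 and 56.2 CPM on control and 31.4, 22.2, 26, 20.7 and 19.6 CPM on arsenic feed. Colon levels of Dusp6 were 72.8, 126, 135, 104 and 75.6 CPM on control and 48.3, 35.2, 61.6 and 44.7 CPM on arsenic feed. The ileum arsenic libraries ranged widely, with number 15 close to the controls. The change was -1.34 ± 0.22 (limma voom adjusted p = 0.000162), and -0.78 with the clock score as a covariate (limma voom adjusted p = 0.465).

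Areg and Ereg, ligands of the EGF receptor, changed by -1.32 ± 0.27 and -1.10 ± 0.21, Areg unevenly (ileum -0.74, cecum -2.48 and colon -0.76, limma adjusted p of the difference = 0.0376). The feedback inhibitors Spry4, Errfi1 and Spred1 changed by -0.72 ± 0.14, -0.68 ± 0.14 and -0.38 ± 0.07. Among the 30 immediate early genes, 8 were called lower and 1 higher, against 8.68% and 7.53% of all genes, with a median of -0.23. Leaving out the libraries numbered 4, 5 or 12 brought the calls from 9 to 5, 5 and 3. Atf3 was at -1.28 (ileum), -1.68 (cecum) and -0.21 (colon) (averaged -1.06 ± 0.19, limma adjusted p of the difference = 0.0277), and Dusp1 changed by -0.70 ± 0.15. Under the clock score covariate, 0 of the 23 ERK genes and 0 of the 30 immediate early genes were called. Over all 17763 genes tested 79 were called with it, so these counts are near the share over all genes.

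Of 17 genes that respond to glucocorticoids, 5 were called lower and 1, Mt1, higher, with a median of -0.23. Sgk1 (ENSMUSG00000019970), a kinase that regulates sodium channels, changed by -1.33 ± 0.23 (limma voom adjusted p = 0.000282). Sgk1 held 335, 355, 372 and 196 CPM in the ileum control libraries and 72.3, 83.6, 94.2, 65.1 and 375 CPM in the ileum arsenic libraries. In the cecum, Sgk1 held 638, 649, 776 and 594 CPM on control and 342, 233, 234, 240 and 438 CPM on arsenic feed. Colon levels of Sgk1 were 318, 279, 340, 332 and 161 CPM on control and 112, 80.3, 160 and 129 CPM on arsenic feed. The diets overlapped in the ileum through arsenic 15 alone, which exceeded every control. Zbtb16, a transcription factor, was at -2.36 (ileum), -1.56 (cecum) and -1.74 (colon) and -1.89 ± 0.29 on average (limma voom adjusted p = 8.98e-05), with control 1 the lowest of the controls in each region. As a covariate, the clock score left 0 of the 17 called, which is near the share over all genes (79 of 17763).

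Metallothioneins bind zinc and other metals through cysteines and are raised by the metal sensor MTF1. Mt1 (ENSMUSG00000031765) had the largest averaged increase of the named genes. Mt1 held 34.8, 43.3, 40.7 and 36.2 CPM in the ileum control libraries and 102, 174, 115, 244 and 189 CPM in the ileum arsenic libraries. In the cecum, Mt1 held 22.6, 22.5, 21.9 and 19.2 CPM on control and 58.1, 58.3, 77.9, 80.2 and 67.6 CPM on arsenic feed. Colon levels of Mt1 were 57.7, 28.4, 16.9, 18.3 and 22.8 CPM on control and 47.1, 111, 60.6 and 77.4 CPM on arsenic feed. The diets stood apart in the ileum and the cecum, and overlapped in the colon through control 1, which was the highest control and above arsenic 11. The averaged change was 1.72 ± 0.18 (limma voom adjusted p = 6.36e-07), with 2.03 ± 0.28 (ileum), 1.67 ± 0.30 (cecum) and 1.46 ± 0.28 (colon). With the clock score as a covariate it was 1.07 and not called (limma voom adjusted p = 0.154).

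Of the 12 metallothionein and zinc transport genes tested, 2 were called higher and 3 lower, and 2 or 3 in place of 5 were called without any 1 of ileum control 3, cecum control 2, cecum arsenic 14 and colon arsenic 15. Slc39a4, the ZIP4 carrier that takes zinc up from the gut lumen, changed by -0.61 ± 0.14 (limma voom adjusted p = 0.00337). Its levels were 943 to 1090 and 432 to 682 CPM in the cecum, control before arsenic, apart from each other. They overlapped in the ileum (223 to 295 and 116 to 340 CPM) and the colon (370 to 687 and 275 to 408 CPM).

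Of 15 tested genes that methylate, reduce or carry arsenic, 1 was called higher and 1 lower, a share near the 16.2% called over all genes. Slc20a2, the phosphate carrier PiT2, held 23.6 to 27.8 CPM (ileum), 17.3 to 19.1 CPM (cecum) and 22 to 30.7 CPM (colon) on control feed, and 31.2 to 33.6, 26.6 to 32.7 and 33.9 to 37.4 CPM on arsenic feed. It rose by 0.48 ± 0.05 without overlap in any region (limma voom adjusted p = 1.3e-06), and was 0.47 and not called with the clock score as a covariate. Pnp2, a purine nucleoside phosphorylase, changed by -0.29 ± 0.07. The methyltransferase As3mt was at 0.13 ± 0.07 and the reductase Gsto1 at 0.15 ± 0.12, and the averages of neither passed (limma voom adjusted p = 0.206 and 0.463). The pump Abcc2 and the channel Aqp3 were at 0.28 ± 0.27 and 0.17 ± 0.86, the latter too spread to measure (limma voom adjusted p = 0.551 and 0.931).

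Of 33 NRF2 targets, 1 was called higher and 1 lower, against 16.2% called of all genes, with a median of -0.01. Hmox1 was at -0.06 ± 0.10, Nqo1 at 0.26 ± 0.16, Gclc at -0.08 ± 0.11 and Slc7a11 at -0.02 ± 0.33 (limma voom adjusted p = 0.757, 0.313, 0.701 and 0.982). Txnrd1, the cytosolic thioredoxin reductase, was at 0.15 (ileum), -0.73 (cecum) and -0.08 (colon), an average of -0.22 ± 0.08 that did not pass while the regions differed (limma adjusted p = 0.056 and 0.00433). Without the label number as a random effect the average passed in limma voom, edgeR and DESeq2 (adjusted p = 0.028, 0.0264 and 0.0182), and without ileum arsenic 14 and 15 in limma voom (-0.26, adjusted p = 0.021). It also passed without any 1 of ileum control 1, ileum arsenic 15, colon control 4 and colon control 5 (limma voom adjusted p = 0.0291, 0.0177, 0.0328 and 0.0306). Without colon control 1, 4 of the 33 targets were called.

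At the epithelial surface, several genes were called for the average while the regions contributed unequally. Duoxa2 and Duox2, which together make hydrogen peroxide at the lumen, changed by -1.77 ± 0.30 and -1.12 ± 0.25. The clock score covariate left -0.23 for Duoxa2 and -0.02 for Duox2, both without a call (limma voom adjusted p = 0.892 and 0.993). Duoxa2 was lower without overlap in the cecum, at 48 to 106 CPM in control and 3.8 to 19.6 CPM in arsenic libraries. Its diets overlapped at 31.6 to 49.2 and 4.63 to 39.3 CPM in the ileum, and at 13.2 to 52.1 and 16.7 to 32.1 CPM in the colon. The phospholipase Plb1 of the brush border is an ileal gene here, and its average of -1.33 ± 0.37 joins 657 to 799 and 91.8 to 333 CPM in the ileum with colon levels of 0.566 to 12 and 0.887 to 1.63 CPM. Its call (limma voom adjusted p = 0.0162) was lost without the 3 libraries numbered 2 (limma voom adjusted p = 0.0574). The sodium-proton exchanger Slc9a3 was at -0.67 (ileum), -1.21 (cecum) and -0.40 (colon) (averaged -0.76 ± 0.20). The interferon-induced Mx1 was at -1.67 (ileum), -0.89 (cecum) and -0.33 (colon) (averaged -0.97 ± 0.16, limma adjusted p of the difference = 0.0487), and the chemokine Cxcl10 rose by 1.09 ± 0.29. Plb1, Slc9a3, Mx1 and Cxcl10 also lost their calls under that covariate, at -0.47, -0.76, -0.94 and 1.19. Of the wider interferon list, 1 of 44 was called higher and 1 lower.

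Of the 375 called genes with an opposite sign in at least 1 region, Bcorl1, a corepressor gene, had the smallest p of the region difference. Bcorl1 held 10.1, 8.62, 9.81 and 12 CPM in the ileum control libraries and 18, 14.3, 20.2, 18.2 and 23.8 CPM in the ileum arsenic libraries. In the cecum, Bcorl1 held 40.3, 37.9, 32.7 and 30.8 CPM on control and 12.2, 12.5, 10.1, 9.98 and 12.2 CPM on arsenic feed. Colon levels of Bcorl1 were 31.7, 18.5, 14.4, 18.9 and 21 CPM on control and 11.5, 9.17, 13.4 and 13.3 CPM on arsenic feed. The diets stood apart in each region, higher on arsenic in the ileum and lower in the cecum and the colon. Its average of -0.51 ± 0.11 was called (limma voom adjusted p = 0.00228) although the regions moved apart, with 0.89 ± 0.19 (ileum), -1.62 ± 0.17 (cecum) and -0.79 ± 0.18 (colon) and a limma adjusted p of 1.23e-05 for the region difference.

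Some calls did not pass when 1 region was left out of the average. With the cecum left out, the mean of the ileum and colon changes kept its sign and did not pass for 10 named genes (limma voom adjusted p = 0.0585 to 0.64). It was -0.51 for Spry4, -0.54 for Slc9a3, -0.41 for Slc39a4, 0.27 for Cry2 and 0.73 for Cxcl10. It was -0.75 for Areg, -0.42 for Dusp1, -0.72 for Duox2, -0.40 for Cry1 and -0.05 for Ube2h. With the ileum left out the same held for Lad1 (0.11), Pigs (0.03), Plb1 (-0.88) and Pnp2 (-0.21) (limma voom adjusted p = 0.0927 to 0.854), and with the colon left out for Bcorl1 (-0.37, limma voom adjusted p = 0.0686). Lad1, an anchoring filament protein, held 129 to 195 CPM in ileum control and 329 to 446 CPM in ileum arsenic libraries, against 249 to 319 and 253 to 333 CPM in the cecum. Its average was 0.51 ± 0.08, with 1.31 (ileum), -0.03 (cecum) and 0.24 (colon) (limma adjusted p of the difference = 0.000133). Pigs, of the GPI anchor transamidase, had 0.98 (ileum), -0.04 (cecum) and 0.10 (colon) (averaged 0.34 ± 0.06). The cecum weighed most for Esyt1, which tethers membranes, and the ubiquitin-conjugating enzyme Ube2h, whose averages of -0.33 ± 0.07 and -0.25 ± 0.04 joined unlike regions (ileum 0.32, cecum -1.01 and colon -0.31, and ileum 0.19, cecum -0.67 and colon -0.29). In Lrrc41 and Prkaca, a catalytic subunit of protein kinase A, opposite changes cancelled to 0.01 ± 0.06 and 0.08 ± 0.07.

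Markers of other cell types were few among the calls. In whole-tissue RNA, fewer cells of a type and less RNA per cell cannot be told apart. None of the 18 smooth muscle, 17 B cell, 24 T cell, 15 fibroblast, 19 macrophage, 22 enteric neuron and glia, 17 Paneth cell, 15 tuft cell or 32 cell cycle genes tested was called for the average (limma voom). At an unadjusted p under 0.05, the smooth muscle, T cell and tuft cell lists had 1 member each, the macrophage list 2, the cell cycle list 3 and the others 0. Of all 17763 genes tested, 5063 had such a p, a larger share than in any of these lists. Single regions were less even. Of the 17 Paneth cell genes 11 were called within the ileum, against 16.9% of all genes there, and none in the other regions, with medians of -0.95 (ileum), 0.53 (cecum) and -0.66 (colon). Their summed level was 12100 to 21400 CPM in ileum control and 4480 to 14600 CPM in ileum arsenic libraries. The B cell median was 2.85 in the cecum, where the summed CPM of the list was 15 to 89.6 in control and 26.5 to 362 in arsenic libraries, and 0.09 and -0.01 in the ileum and colon. The smooth muscle medians were -0.33, 0.28 and 0.21 in the ileum, cecum and colon, with summed levels of 7280 to 13500 CPM in ileum control and 7430 to 8220 CPM in ileum arsenic libraries. The averaged count was 3157 with the smooth muscle score as a covariate and 2878 without, while the genes with a region difference fell from 1539 to 672. Among epithelial lists, 3 of 16 goblet cell genes were called lower and none higher, and of 22 enterocyte genes 1 was called higher and 2 lower, the latter share close to the 8.68% lower calls over all genes. With an unadjusted p under 0.05, 7 goblet cell genes were lower and 0 higher, and 7 enterocyte genes lower and 1 higher. Of 44 cytosolic ribosomal protein genes 6 were called higher and none lower (median 0.12), and of 31 fatty acid oxidation genes 5 higher and none lower (median 0.10). Within the ileum, cecum and colon, 7, 4 and 0 of the 44 ribosomal protein genes were called, with medians of 0.12, 0.19 and 0.02. Over all genes 16.9%, 10.1% and 3.16% were called in these regions, and the ribosomal counts lay near or under those shares. For the 31 fatty acid oxidation genes the calls were 10, 0 and 0, with medians of 0.34, -0.03 and 0.09. That count lay above the share over all genes in the ileum only.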

How the data were processed

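The sequencing was of poly-A RNA from 3 gut regions, with paired reads from NEBNext Ultra libraries, per the labels' protocols. The authors deposited raw counts, which were used as they stand. For the software, the submitters' processing notes list DESeq2 1.6.3, HTSeq 0.6.0, SAMtools and HISAT2 2.1.0. Neither build, annotation nor strand setting is given in the sources used here, and counts of antisense, overlapping and near-identical genes are therefore uncertain. The series' design text speaks of rats, while every sample label names mice. Symbols were joined by Ensembl identifier for 52403 of 52550 genes, and the other 147 took 0.00312 to 0.0059% of each library's total.

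Genes were kept by filterByExpr (minimum count 10, minimum total 15), which left 99.89 to 99.94% of the counts, and scaled by TMM (R 4.3.3, edgeR 4.0.16). limma 3.58.1 voom fitted the 6 group means with the label number as a random effect (statmod 1.5.0, correlation 0.093) and robust moderation. It was used for this contrast before, and so stands in place of edgeR's test, which is an alternative. Contrasts were the mean of the 3 regional differences, each regional difference, and an F-test that they are equal. List scores used a prior count of 2. The members, gene lists and tests were chosen with earlier results of these data known. Named genes are the 15 strongest increases and decreases among called genes without overlap in any region and at least 1 CPM, the 10 smallest p in each direction, up to 5 called members of a list, the 8 smallest p of the region difference among called and among other genes, and fixed genes of arsenic handling, stress and the clock. Not all of them are reported here. On simulated data of 17531 genes with counts like these, 100 genes were changed 2-fold and 100 4-fold, alike in all 3 regions. These are fewer than the genes called in the real data. Each simulated gene had the same dispersion in all regions, and no clock score moved with the diet. The rates that follow hold for such counts and need not hold for the real ones. The averaged test recovered 74% of the 2-fold and 93% of the 4-fold changes, and 7.73% of its calls were false. The region difference was called for 0 genes. No such difference was simulated, so this does not measure the power to find one. Alternatives were other scalings, filters, tools and weights, covariates, each library, label number or region left out, and, chosen after seeing the data, 1 weight per region and ileum arsenic 14 and 15 left out together. Figures were drawn with matplotlib 3.10.9.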

Additional observations from a re-analysis of the deposited data

Results flagged for a closer look

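In 14 of 156 groups of libraries (26 genes, 6 groups each), 1 library stood far from the others of its group. The criterion was a gap to the nearest library above Dixon's 95% critical value for the group's range, which chance passes in about 1 in 20 groups. Cecum control 1 was the highest of its group for Banp (19.0 CPM against 14 to 14.4) and the lowest for Zbtb16 (3.33 against 7.23 to 7.86). Colon control 1 was the lowest for Hmgcs1 (109 against 159 to 173) and the highest for Mt1 (57.7 against 16.9 to 28.4) and Slc39a4 (687 against 370 to 455). Colon control 4 was the highest for Hspa5 (731 against 539 to 582) and Plb1 (12 against 0.566 to 2.57), and cecum control 2 was the highest of its group for Plb1 (10.8 against 6.6 to 6.84). Ileum arsenic 15 held 375 CPM of Sgk1 against 65.1 to 94.2, and ileum arsenic 13 held 39.3 CPM of Duoxa2 against 4.63 to 12.3. In the cecum on arsenic feed, number 11 was high for Hsph1 (51.3 against 35.2 to 38.8) and number 14 for Txnrd3 (8.97 against 6.96 to 7.52). In the colon on arsenic feed, number 12 was low for Hspa1b (35.7 against 39.5 to 40.0) and number 15 high for Slc20a2 (37.4 against 33.9 to 34.1).

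The size of the arsenic effect differed between regions for 20 of the 100 named genes, by the F-test of the limma fit. Of these, Bcorl1, Pigs, Lad1, Esyt1, Ube2h, Dhcr7, Lrrc41 and Prkaca were named for their small p of this same test. The count is therefore not comparable with the 8.66% called over all genes. Among genes higher on average, the limma adjusted p of that difference was 0.00937 for Mvd, 0.00281 for Mvk, 0.0194 for Hnrnpd, 0.022 for Nop53, 0.015 for Chmp6, 7.11e-05 for Pigs and 0.000133 for Lad1. Nop53 had 0.87 ± 0.08 (ileum), 0.44 ± 0.08 (cecum) and 0.46 ± 0.08 (colon) and Chmp6 0.86 ± 0.09 (ileum), 0.28 ± 0.09 (cecum) and 0.55 ± 0.09 (colon), the ileum highest in both. Among genes lower on average, it was 0.00283 for Stip1, 0.0459 for Hyou1, 0.00874 for Cry1, 0.0376 for Areg, 0.0277 for Atf3, 0.0487 for Mx1, 1.23e-05 for Bcorl1, 0.000133 for Esyt1 and 4.75e-05 for Ube2h. The average was not called for Dhcr7 (limma adjusted p of the region difference = 1.49e-05), Lrrc41 (0.000277), Prkaca (0.000322) and Txnrd1 (0.00433). Lrrc41 had 0.53 ± 0.09 (ileum), -0.43 ± 0.09 (cecum) and -0.08 ± 0.09 (colon) and Prkaca 0.66 ± 0.11 (ileum), -0.41 ± 0.11 (cecum) and -0.01 ± 0.11 (colon).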

How the results depend on the processing

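The count of 2878 averaged calls ranged from 2299 to 4080 over the other settings except the clock score covariate, which gave 79, and from 1996 to 3449 when 1 library or 1 label number was left out. Leaving out the ileum gave 2587, the cecum 2346 and the colon 2299, and DESeq2 (5 genes without an adjusted p) gave 3845. With the clock score as a covariate, the regional calls were 1073 (ileum), 44 (cecum) and 37 (colon), with 15 in each region, and 4 of the 84 named genes with a called average changed sign: Arntl (0.15), Npas2 (0.06), Tef (-0.26) and Cry2 (-0.14), all members of the score. Another 54 kept their sign and lost their call. Of the 16 named genes without a call, 7 changed sign. With sample quality weights 4577 genes were called in the cecum, 1178 in the colon and 326 in each region, and 2902 for the region difference. With 1 weight per region the counts were 1981 (ileum), 4064 (cecum) and 372 (colon). edgeR in each region alone gave 1190, 3933 and 107, and 43 in each region. The smooth muscle covariate left 672 region differences. Averages without the ileum reversed Dhcr7 (-0.29) and Lrrc41 (-0.25), and those without the cecum Bcorl1 (0.05) and Esyt1 (0.01). Over the fits that left out a library or number, counts ranged from 1665 to 3510 (ileum), 990 to 2255 (cecum), 233 to 775 (colon), 74 to 217 in each region, 169 to 332 without overlap and 394 to 2057 for the region difference. Upper-quartile scaling moved the median of all genes by 0.10 in the cecum. The excess of lower over higher averaged calls (1541 and 1337) turned round with that scaling, to 1326 lower and 1611 higher. It also turned round without the cecum (1017 and 1329) and with the clock score covariate (30 and 49). The other scalings, filters, tools, weights and covariates, and the averages without the ileum or the colon, kept more lower calls. The causes were not tested.

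The labels do not say whether libraries with equal numbers came from the same mouse, and the main fit kept the number as a random effect. Deviations from the group means correlated at -0.092 to 0.292 over 24 pairs of libraries with equal numbers (median 0.1255, 14 over 0.1). Over 97 pairs with different numbers they correlated at -0.361 to 0.188 (median -0.033, 17 over 0.1). Equal numbers had the higher median, but the ranges overlapped. Whether equal numbers mark the same mouse was not tested beyond this. With no replicate block, limma voom called 3423 averaged genes and edgeR 3501 in place of 2878, and Dhcr7, Nr1d1 and Txnrd1 gained a call in both, as in DESeq2.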
